A study of Mus musculus with 4 samples.

Results

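The heat shock proteins and chaperonins measured here were the 74 genes, of 27670 on the array, whose names in the scanner files begin with Hsp, or with Dnaja, Dnajb or Dnajc and a number, or that are subunits of the chaperonin CCT (Tcp1 and Cct2 to Cct8) or the heat shock factors Hsf1 and Hsf2. They were represented by 161 spots of 143 probes, and 71 of the 74 genes passed the filter on dim probes. RNA of ZHBTc4 cells, mouse embryonic stem cells whose Oct4 comes from a transgene that doxycycline turns off, was measured on 4 two-colour Agilent arrays. The dox+TCP group (2 arrays) had 2 µg doxycycline and TCP, an agent that the labels give only by these letters, for 48 h. The dox group (2 arrays, titled as controls) had the same doxycycline for the same time without TCP. The reference was RNA of ZHBTc4 cells for which the labels name no treatment, and it was hybridised on every array. Treated RNA carried Cy5 and reference RNA Cy3, with no dye swap, so a dye bias of a probe stays in each ratio against the reference and cancels between the groups. Each treated sample had doxycycline and the loss of Oct4 together, and these cannot be told apart. All cells were grown on irradiated embryonic fibroblasts and then passaged 2 times on gelatin.

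Molecular chaperones bind unfolded proteins and help them to fold. Hsp70 proteins hold short unfolded stretches in a cycle driven by ATP, which J proteins (the Dnaj families) start and which Hsp110 proteins reset by releasing ADP. Hsp90 acts on nearly folded clients such as kinases and receptors, small heat shock proteins keep unfolding proteins soluble, and the chaperonins (CCT in the cytosol, Hsp60 with Hsp10 in mitochondria) fold proteins inside a closed chamber. Hsf1 binds heat shock elements, arrays of GAA units in alternating orientation, and switches on many of these genes under stress. In the endoplasmic reticulum, an unfolded protein response acts on Hspa5, Hsp90b1 and other chaperone genes through the endoplasmic reticulum stress element. Embryonic stem cells are known for high levels of several cytosolic chaperones.

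Promoter sequences are shown for 7 members because they carry these elements and belong to genes or compartments whose values are described further on. They run from 250 bases before to 50 bases after the start site and come from RefSeq on GRCm38.p6. Of the 74 members, 60 had promoters in that table, 79 in all. Matches were searched on both strands for GAANNTTC and TTCNNGAA, which overlap where units follow each other, and for CCAAT, 9 bases of any kind and then CCACG. Capitals mark the matches. A pair of heat shock units was found in 24.1% of the 79 member promoters and in 15.1% of all 32851 promoters. A run of 3 units in a row, meaning both pair motifs sharing a unit, was found in 6 member promoters (7.59%) of 4 genes, Hspd1, Hspe1, Dnajb6 and Hsph1, and in 0.603% of all promoters. The windows of Hsph1 overlapped each other, as did those of Dnajb6 and those of Hspd1 and Hspe1, so 1 match can count in more than 1 promoter. The endoplasmic reticulum stress element was found in 3 member promoters (3.8%), those of Hspa5, Hsp90b1 and Dnajc3, and in 0.119% of all promoters. Such matches are letters in a window, and no binding was measured.

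The promoter of Hspe1, the mitochondrial Hsp10, lies at chr1:55087898-55088197 on the plus strand; it shares 285 bases with a promoter of Hspd1, the mitochondrial Hsp60, which is read from the opposite strand. The promoter of Hsph1, the cytosolic Hsp110, lies at chr5:149636287-149636586 on the minus strand. That of Hspb1, a small heat shock protein, lies at chr5:135887669-135887968 on the plus strand. The promoter of Cct2, the beta subunit of CCT, that holds a match lies at chr10:117063326-117063625 on the minus strand.
Hspe1: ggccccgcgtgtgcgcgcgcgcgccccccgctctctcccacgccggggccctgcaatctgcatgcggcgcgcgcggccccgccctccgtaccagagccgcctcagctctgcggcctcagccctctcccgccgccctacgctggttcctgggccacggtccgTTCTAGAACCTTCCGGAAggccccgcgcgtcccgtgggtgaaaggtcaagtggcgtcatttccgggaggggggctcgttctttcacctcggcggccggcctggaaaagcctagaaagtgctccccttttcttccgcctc
Hsph1: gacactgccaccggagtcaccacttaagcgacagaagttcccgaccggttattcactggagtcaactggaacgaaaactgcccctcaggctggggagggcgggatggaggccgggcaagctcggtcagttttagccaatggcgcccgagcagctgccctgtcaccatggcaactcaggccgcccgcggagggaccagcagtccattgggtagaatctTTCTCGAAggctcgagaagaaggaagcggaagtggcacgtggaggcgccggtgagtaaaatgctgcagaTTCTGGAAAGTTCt
Hspb1: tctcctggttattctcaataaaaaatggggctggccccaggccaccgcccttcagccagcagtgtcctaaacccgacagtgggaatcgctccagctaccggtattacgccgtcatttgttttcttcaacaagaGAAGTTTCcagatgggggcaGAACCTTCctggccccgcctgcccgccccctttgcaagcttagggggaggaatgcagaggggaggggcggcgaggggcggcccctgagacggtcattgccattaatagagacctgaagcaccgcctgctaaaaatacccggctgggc
Cct2: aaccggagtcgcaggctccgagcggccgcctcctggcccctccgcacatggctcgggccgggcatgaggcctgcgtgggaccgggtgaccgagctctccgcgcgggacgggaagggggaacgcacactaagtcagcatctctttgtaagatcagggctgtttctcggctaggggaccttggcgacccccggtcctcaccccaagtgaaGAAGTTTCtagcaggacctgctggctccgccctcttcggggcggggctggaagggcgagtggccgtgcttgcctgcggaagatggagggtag
The next 3 promoters carry the endoplasmic reticulum stress element. That of Hspa5, which encodes BiP, the Hsp70 of the endoplasmic reticulum, lies at chr2:34771840-34772139 on the plus strand. That of Hsp90b1, which encodes the Hsp90 of the same compartment, lies at chr10:86705395-86705694 on the minus strand and holds the element 2 times. That of Dnajc3, a J protein there, lies at chr14:118937682-118937981 on the plus strand.
Hspa5: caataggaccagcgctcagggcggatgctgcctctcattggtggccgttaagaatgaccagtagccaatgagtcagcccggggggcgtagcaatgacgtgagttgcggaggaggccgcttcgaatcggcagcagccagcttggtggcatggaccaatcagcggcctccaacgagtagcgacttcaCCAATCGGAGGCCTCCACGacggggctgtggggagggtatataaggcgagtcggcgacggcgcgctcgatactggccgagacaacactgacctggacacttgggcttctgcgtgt
Hsp90b1: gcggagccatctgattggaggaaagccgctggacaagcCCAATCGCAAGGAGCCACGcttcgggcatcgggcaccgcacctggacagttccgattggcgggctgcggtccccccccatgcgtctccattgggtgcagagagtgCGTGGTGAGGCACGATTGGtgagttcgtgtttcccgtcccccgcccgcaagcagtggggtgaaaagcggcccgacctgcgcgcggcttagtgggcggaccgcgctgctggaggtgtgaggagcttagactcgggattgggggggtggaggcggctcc
Dnajc3: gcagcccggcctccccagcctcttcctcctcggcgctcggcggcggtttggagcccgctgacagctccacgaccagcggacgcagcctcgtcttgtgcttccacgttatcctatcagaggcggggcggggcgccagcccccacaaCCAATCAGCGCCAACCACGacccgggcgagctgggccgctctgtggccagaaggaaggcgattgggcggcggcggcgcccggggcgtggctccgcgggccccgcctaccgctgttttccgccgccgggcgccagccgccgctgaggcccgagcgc

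Oct4 (Pou5f1) checked the labels: its log2 ratio was -3.29 and -3.28 on the dox+TCP arrays and -3.38 and -3.62 on the dox arrays. The reference channel was not the same on all arrays. Of 9 trophoblast markers, 6 (Cdx2, Gata3, Krt7, Krt8, Krt18 and Tfap2c) were higher in Cy3 on both replicate 2 arrays than on both replicate 1 arrays, by a mean of at least 0.5 on the log2 scale. The summed Cy3 level of these 9 markers was 17.76 (dox+TCP) and 17.63 (dox) on the replicate 2 arrays and 15.05 (dox+TCP) and 14.88 (dox) on the replicate 1 arrays, on the log2 scale of normalized intensity, while that of 6 stem cell markers lay between 16.39 and 16.54, although Pou5f1 and Dppa3 among them were higher on replicate 2 by the same criterion. Of 10 feeder fibroblast markers, 4 were lower on replicate 2, and their summed Cy3 level was 12.09 (dox+TCP) and 11.98 (dox) on the replicate 2 arrays and 12.64 on each replicate 1 array. In Cy5 the trophoblast sum was 18.23 and 18.38 in dox+TCP cells and 18.8 and 18.51 in dox cells. No trophoblast, stem cell or feeder fibroblast marker tested was below background in Cy3 on all 4 arrays. Both replicate 1 arrays were on 1 slide, and dox replicate 2 and dox+TCP replicate 2 were on slides of their own, the last scanned on another day. In such bulk samples, fewer cells of a type and less RNA per cell cannot be told apart.

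Members that followed this split of the reference are described first, because their ratios rest on it. The reference level averaged at least 0.5 higher, with no overlap, on the replicate 2 arrays for 5 of the 71 members (7.04%), against 7.82% of all 21361 genes tested, and lower for 2 members (2.82%), Dnajb4 and Dnajb8, against 6.37% of all genes. The 5 were Hsp90aa1, Hspa1a, Hspa4l, Hspb2 and Hspb8. Hsp90aa1 encodes the stress-inducible Hsp90 of the cytosol; its normalized log2 Cy3 level was 17.33 (dox+TCP) and 17.58 (dox) on the replicate 2 arrays and 16.51 (dox+TCP) and 16.34 (dox) on the replicate 1 arrays. Hspa1a, a stress-inducible Hsp70, had 10.37 (dox+TCP) and 10.36 (dox) on the replicate 2 arrays and 9.38 (dox+TCP) and 9.39 (dox) on the replicate 1 arrays. The 2 replicate 1 levels of each gene lay close together, and so did those of replicate 2 for Hspa1a. Hspb8, a small heat shock protein that works with Bag3, had 10.98 and 10.62 on the dox+TCP and dox arrays of replicate 2 and 9.67 and 9.63 on those of replicate 1. In Cy5, Hspb8 differed little, with 11.06 and 11.17 in dox+TCP cells and 11.05 and 11.20 in dox cells. Its ratios therefore split by replicate, with 1.39 and 0.19 in dox+TCP cells and 1.41 and 0.58 in dox cells, and it was not called. The part of the trophoblast and feeder markers in these differences was not tested.

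**Figure D1:**
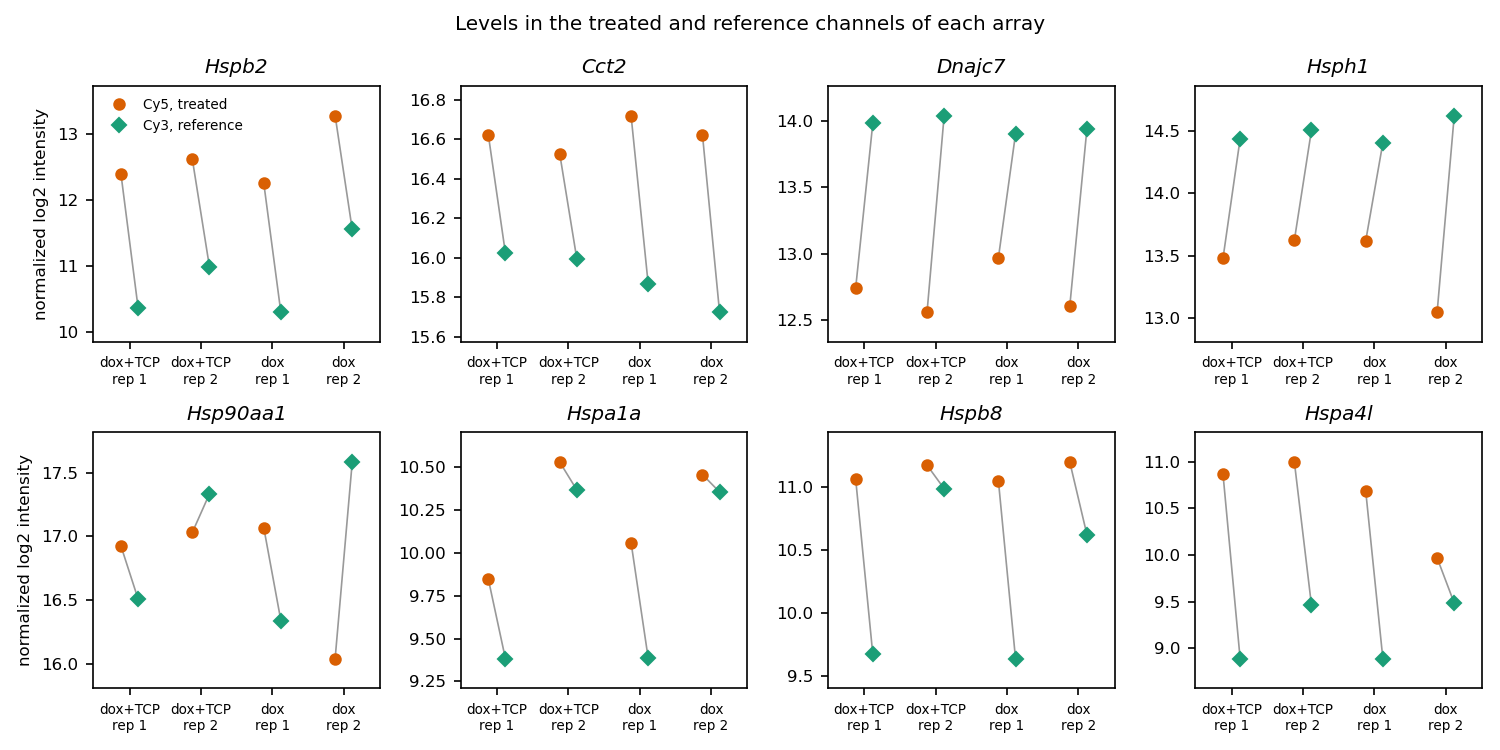
Normalized log2 intensity of the treated channel (Cy5, circles) and the reference channel (Cy3, diamonds) on each of the 4 arrays for 8 genes, each panel with its own axis, which does not start at 0. Hspb2, Hspb8, Hspa1a, Hsp90aa1 and Hspa4l have a higher reference level on both replicate 2 arrays, while Cct2 stays above and Dnajc7 and Hsph1 stay below the reference on every array.

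Against the reference, 10 of 71 members (14.1%) were called in dox+TCP cells and 8 (11.3%) in dox cells, by limma at a Benjamini-Hochberg adjusted p under 0.05 over all genes tested. The background was 15.4% of all genes with dox+TCP and 14.6% with dox, so the members' shares were close to it with loess. The same 2 shares are the background of the counts by family and compartment further on. With median centring in its place, 17 members (23.9%) were called with dox+TCP against 23.9% of all genes, and 34 (47.9%) with dox against 28.1%. In dox+TCP cells, 4 members were higher and 6 lower (7.32% and 8.08% of all genes). In dox cells, 3 were higher and 5 lower (6.32% and 8.26% of all genes). Median centring gave 16 higher and 1 lower with dox+TCP and 31 higher and 3 lower with dox, and of the 11 lower calls named here it kept those of Dnajc7 in both groups and of Dnajc6 in dox cells. With local backgrounds as read, 0 members were called in either group (14 with dox+TCP and 10 with dox at an unadjusted limma p under 0.05). Every called member had 1 sign on both arrays of its group, which a call from 2 arrays nearly requires, so it is no separate support. Hspb2, Cct2, Dnajc7 and Tmem208 were called in both comparisons, which share the reference. The median log2 ratio of the 71 members was -0.08 in dox+TCP cells and -0.06 in dox cells, beside 0.03 and 0.00 for all genes (-0.000777 before rounding). Median centring turned these medians positive, at 0.35 with dox+TCP and 0.48 with dox, and the share of higher ones among all called genes was then 78.4% with dox+TCP and 81.2% with dox, beside 47.5% and 43.4% with loess. Without dox+TCP replicate 1, or without dox+TCP replicate 2, 0 members and 0 genes were called against the reference in either group. The members' median log2 ratio with dox+TCP was -0.12 without dox+TCP replicate 1 and -0.06 without dox+TCP replicate 2, beside 0.03 for all genes in both cases. With dox it was -0.12 without dox replicate 1 and 0.04 without dox replicate 2, beside 0.0086 and 0.0011 for all genes.

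**Figure D2:**
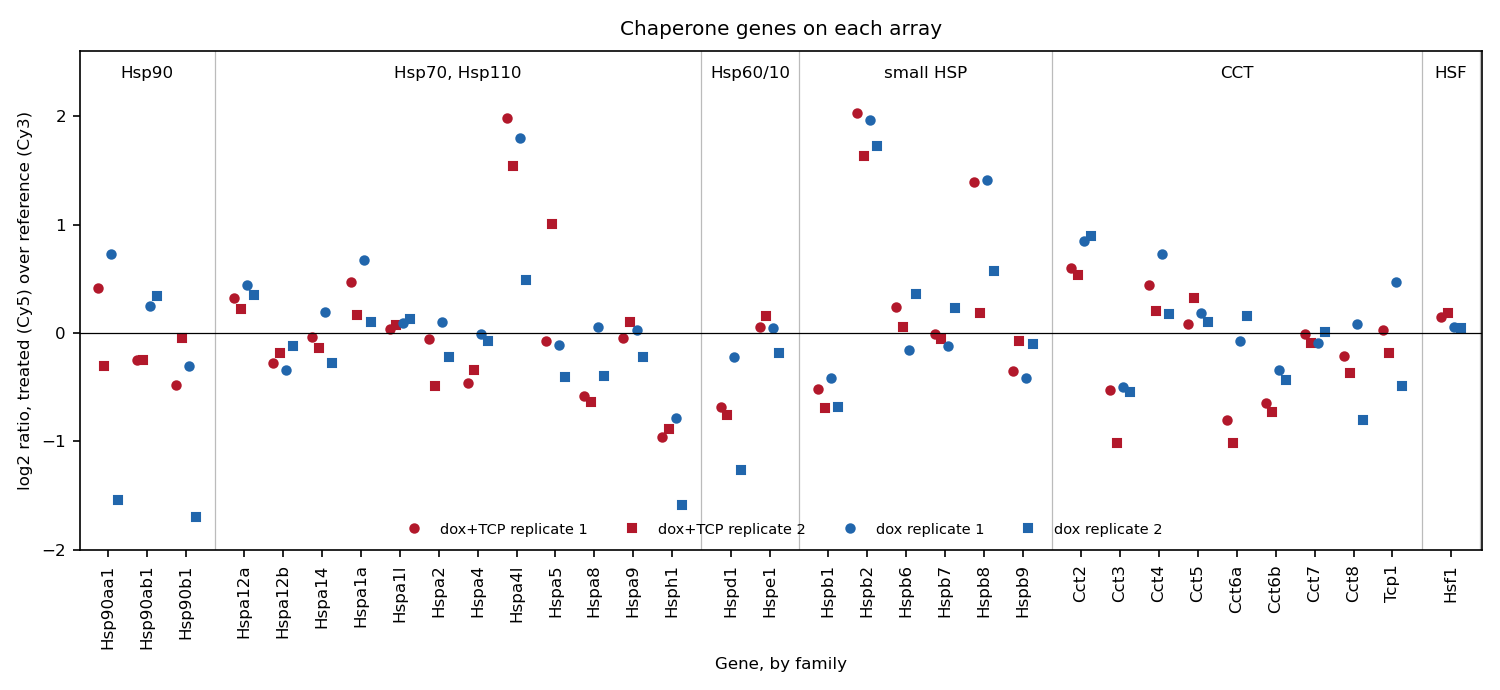
log2 ratio of treated over reference RNA for each tested gene of 6 chaperone families on the 4 arrays (red, dox+TCP; blue, dox; circles, replicate 1; squares, replicate 2). Hspb2 and Cct2 lie above 0 and Hsph1, Cct3 and Cct6b below 0 on all arrays, Cct6a lies low on the dox+TCP arrays, and Hsp90aa1 and Hsp90b1 lie low on dox replicate 2. Under median centring, the median of each family against the reference is above 0.

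No heat shock factor was called. Hsf1, the main switch of the heat shock response, had log2 ratios of 0.14 and 0.18 in dox+TCP cells and of 0.05 and 0.04 in dox cells. Both probes of Hsf2, a second factor that is active in development, failed the filter, as did those of Hspb3 and Dnajb7.

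Among the small heat shock proteins, Hspb2 rose in both groups. Hspb2 is known from muscle, where it binds a kinase of that tissue, and its gene lies head to head with Cryab, another small heat shock gene whose name the rule did not take. The log2 ratio of Hspb2 was 2.03 and 1.63 in dox+TCP cells (1.83 ± 0.14, SE, n = 2 arrays; adjusted p = 0.0169) and 1.96 and 1.73 in dox cells (1.84 ± 0.14; adjusted p = 0.0158). This was 3.55-fold with dox+TCP and 3.59-fold with dox. Its probe lies on chromosome 9 from 50729688 to 50729747 (minus strand, mm7), and a second probe, from 50730151 to 50730210, gave 1.08 in dox+TCP cells and 1.23 in dox cells, also called. The Cy5 level of Hspb2 was 12.39 and 12.61 in dox+TCP cells and 12.26 and 13.28 in dox cells, against 10.36 and 10.98 and 10.30 and 11.55 in Cy3 on the same arrays. Treated and reference levels did not overlap, also where the reference was high. Cryab, chosen after its values were seen, rose by 1.25 ± 0.13 with dox+TCP (adjusted p = 0.0214) and by 1.13 ± 0.13 with dox (adjusted p = 0.0238) on the log2 scale.

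Hspb1, the widely expressed small heat shock protein whose promoter holds paired heat shock units, fell by 0.60 ± 0.11 in dox+TCP cells (SE, n = 2 arrays; adjusted p = 0.0466), with ratios of -0.51 and -0.69, but was at 0.06 under median centring. In dox cells its ratios were -0.41 and -0.68 and it was not called (adjusted p = 0.0572). A second Hspb1 probe, which the files place on chromosome 13 while the gene lies on chromosome 5, gave 0.00 with dox+TCP and 0.05 with dox. The ratios of Hspb6, Hspb7 and Hspb9 lay between -0.35 and 0.24 in dox+TCP cells and between -0.41 and 0.36 in dox cells, with no call. Hspb6 was well above background in both channels on only 1 of the dox+TCP arrays.

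Of the 3 Hsp90 genes none was called. Hsp90ab1 encodes the constitutive Hsp90 of the cytosol, and its ratios were -0.25 and -0.25 in dox+TCP cells against 0.25 and 0.34 in dox cells, so the groups lay on either side of the reference and did not overlap. Under median centring the mean ratios of all 3 Hsp90 genes were above 0 with dox+TCP. Hsp90aa1 had 0.42 and -0.30 in dox+TCP cells and 0.73 and -1.54 in dox cells. On dox replicate 2 its Cy5 level was 16.04, below the 17.07 of dox replicate 1, while Cy3 was higher. Hsp90b1, the Hsp90 of the endoplasmic reticulum, had -0.48 and -0.04 in dox+TCP cells and -0.30 and -1.70 in dox cells, with dox replicate 2 again the lowest.

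In the Hsp70 and Hsp110 family, 1 of 12 genes was called, and the family's median ratio was -0.03 with dox+TCP and -0.05 with dox (0.33 and 0.66 under median centring). Hsph1, an Hsp110 that releases ADP from Hsp70, fell in dox cells, with ratios of -0.79 and -1.58 (-1.19 ± 0.22, SE, n = 2 arrays; adjusted p = 0.0472). In dox+TCP cells its ratios were -0.96 and -0.89, inside the range of the dox arrays, at an adjusted p of 0.072. Under median centring the call with dox was lost (-0.51; adjusted p = 0.0838). Its Cy5 levels of 13.48 and 13.62 in dox+TCP cells and 13.62 and 13.04 in dox cells were all below its Cy3 levels, which ran from 14.41 to 14.63. Hspa4l, a related protein first known from testis, had high ratios that were not called, 1.98 and 1.54 in dox+TCP cells (adjusted p = 0.0562) and 1.80 and 0.49 in dox cells (adjusted p = 0.128).

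Hspa8, the constitutive Hsp70 of the cytosol, had ratios of -0.58 and -0.64 in dox+TCP cells (adjusted p = 0.0676) and of 0.06 and -0.40 in dox cells, so the groups did not overlap. Both Hspa8 probes are placed on chromosome 5 in the files while the gene lies on chromosome 9, so they may read a copy as well. The second probe was called with dox+TCP, at -0.93, and gave -0.01 with dox. The stress-inducible Hspa1a had 0.47 and 0.16 in dox+TCP cells and 0.68 and 0.10 in dox cells, and its probes may not tell it from the near-identical Hspa1b. Hspa4, another Hsp110, had -0.47 and -0.34 in dox+TCP cells and -0.01 and -0.08 in dox cells by its brightest probe. Its 4 probes disagreed: a dimmer probe gave -1.19 with dox+TCP and -1.99 with dox, the last a call, and 2 others ran from -0.42 to 0.28. Hspa2, Hspa1l, Hspa12a, Hspa12b and Hspa14 lay between -0.49 and 0.32 in dox+TCP cells and between -0.34 and 0.45 in dox cells on single arrays, by their brightest probes. The 3 probes of Hspa12a disagreed, from -0.35 to 1.09 with dox+TCP and from -0.41 to 1.20 with dox, the last a call.

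The CCT chaperonin, a ring known for folding actin and tubulin, had calls in both directions in dox+TCP cells. All 9 subunit genes were tested. In dox+TCP cells, Cct2 was higher and Cct3, Cct6a and Cct6b were lower, and in dox cells Cct2 was higher. Median centring raised Cct2 to 1.29 with dox+TCP and 1.73 with dox. The loess ratios of Cct2 were 0.60 and 0.53 in dox+TCP cells (0.57 ± 0.08, SE, n = 2 arrays; adjusted p = 0.0289) and 0.85 and 0.90 in dox cells (0.87 ± 0.08; adjusted p = 0.018). All 4 arrays were above 0, and the groups did not overlap. Its second probe was called with dox, at 1.29, and gave 0.27 with dox+TCP, which was no call. Cct6a, the zeta subunit, fell with dox+TCP, where its ratios were -0.80 and -1.02 (-0.91 ± 0.11; adjusted p = 0.0253), against -0.08 and 0.16 in dox cells. On dox+TCP replicate 1 its Cy5 level was low, at 11.52. On dox+TCP replicate 2 its Cy5 level of 12.30 lay between those of the dox arrays (12.38 and 12.14), while its Cy3 level was 13.32, above the 11.98 to 12.46 of the other arrays. Both channels were thus higher there than on dox+TCP replicate 1, where Cy3 was 12.32. A shift shared by both channels leaves the ratio unchanged, and what raised them was not tested.

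Cct6b, the form of that subunit known from testis, fell with dox+TCP, where it had -0.64 and -0.73 (adjusted p = 0.0246), and had -0.34 and -0.43 in dox cells (adjusted p = 0.0607). On dox+TCP replicate 2 its Cy5 level of 13.97 was above both dox levels (13.93 and 13.77), and its Cy3 level was 14.71, above the 14.19 to 14.27 of the other arrays. Here too both channels were higher than on dox+TCP replicate 1 (Cy5 13.54 and Cy3 14.19). Cct3, the gamma subunit, fell with dox+TCP, where it had -0.53 and -1.01 (adjusted p = 0.0483), and had -0.50 and -0.54 in dox cells (adjusted p = 0.102). A second Cct3 probe gave -0.03 with dox+TCP and -0.18 with dox, and 9 of the 15 alternatives did not call Cct3. Under median centring all of these lower calls with dox+TCP were lost, with Cct6a at -0.50 (adjusted p = 0.0781), Cct6b at -0.15 (adjusted p = 0.386) and Cct3 at -0.34 (adjusted p = 0.201). The other subunits were not called. By their brightest probes, Cct4 (delta), Cct5 (epsilon) and Cct7 (eta) lay between -0.09 and 0.44 in dox+TCP cells and between -0.09 and 0.73 in dox cells. A second Cct4 probe had the opposite sign, at -0.51 with dox+TCP and -0.65 with dox, with no call. Tcp1 (alpha) had 0.03 and -0.19 in dox+TCP cells and 0.47 and -0.49 in dox cells, and Cct8 (theta) had -0.21 and -0.37 in dox+TCP cells and 0.08 and -0.81 in dox cells. A second Tcp1 probe gave 0.45 with dox+TCP and 0.42 with dox, with no call. The median over the 9 genes, by their brightest probes, was -0.08 with dox+TCP and -0.01 with dox, and it was 0.51 and 0.73 under median centring.

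In mitochondria, 1 of 7 members was called. Dnajc19, part of the motor that pulls proteins into the matrix, fell in dox cells, with ratios of -0.60 and -0.61 (-0.60 ± 0.08, SE, n = 2 arrays; adjusted p = 0.0287), against -0.35 and -0.46 in dox+TCP cells (adjusted p = 0.0516), but was at 0.14 with dox under median centring. Only 5 of the 15 alternatives kept its call. A second Dnajc19 probe gave -0.31 with dox+TCP and -0.18 with dox, with no call. The chaperonin pair Hspd1 and Hspe1, whose promoters overlap, differed in their values. Hspd1 had -0.68 and -0.76 in dox+TCP cells and -0.22 and -1.27 in dox cells, whereas Hspe1 had 0.06 and 0.16 in dox+TCP cells and 0.05 and -0.18 in dox cells. Neither was called. A second Hspd1 probe gave -0.82 with dox+TCP and -0.72 with dox. Hspa9, the Hsp70 of the matrix, and the J proteins Dnaja3, Dnajc11 and Dnajc15 had mean ratios from -0.27 to 0.03 with dox+TCP and from -0.43 to 0.17 with dox.

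Of the 36 J proteins tested, 3 were called in dox+TCP cells and 4 in dox cells, beside 15.4% and 14.6% of all genes. Dnajc7, which links Hsp70 and Hsp90 through its TPR repeats, fell in both groups. Its ratios were -1.24 and -1.49 in dox+TCP cells (-1.37 ± 0.14, SE, n = 2 arrays; adjusted p = 0.0211) and -0.94 and -1.34 in dox cells (-1.14 ± 0.14; adjusted p = 0.0263). The probe lies on chromosome 11 from 100692114 to 100692173 (minus strand, mm7). Its Cy5 level was 12.74 and 12.56 in dox+TCP cells and 12.97 and 12.60 in dox cells, while Cy3 ran from 13.91 to 14.04. Every treated level was below every reference level. Under median centring Dnajc7 was still called, at -0.90 with dox+TCP and -0.51 with dox. Dnajc12, which helps the aromatic amino acid hydroxylases, rose with dox+TCP (0.97 and 0.57; adjusted p = 0.0475) and had 0.54 and 0.81 in dox cells (adjusted p = 0.0616), where median centring called it at 1.22.

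Dnajc18 rose with dox+TCP, at 0.62 and 0.59 (adjusted p = 0.0409), and had 0.34 and 0.07 in dox cells (adjusted p = 0.276). Median centring gave 0.99 with dox+TCP and called it with dox, at 0.75. A second Dnajc18 probe was called in both groups, at 0.65 with dox+TCP and 0.58 with dox. Dnajc14 rose in dox cells, at 0.65 and 0.87 (adjusted p = 0.0384), against 0.48 and 0.16 in dox+TCP cells (adjusted p = 0.182), and median centring called it in both groups, at 0.68 with dox+TCP and 1.28 with dox. Dnajc6 encodes auxilin, which strips clathrin from vesicles. It fell in dox cells, at -0.63 and -1.16 (adjusted p = 0.0464), against 0.10 and -0.12 in dox+TCP cells. On dox replicate 2 its Cy3 level was 9.07, above the 8.25 to 8.27 of the other arrays. Its Cy5 level was 8.37 and 8.13 in dox+TCP cells and 7.61 and 7.91 in dox cells. The other 22 J proteins outside mitochondria and the endoplasmic reticulum had mean ratios from -0.96 to 0.66 with dox+TCP and from -0.67 to 0.45 with dox. Tmem208, listed as Hspc171 in the files, is no heat shock protein and was matched by name only; it fell by 0.70 with dox+TCP (adjusted p = 0.0218) and by 0.92 with dox (adjusted p = 0.0167) on the log2 scale, and both calls were lost under median centring (-0.20 with dox+TCP and -0.26 with dox). Hspbap1, a binding protein matched in the same way, was not called.

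None of the 7 members of the endoplasmic reticulum was called by its brightest probe. Of their other probes, 1 of Dnajc10 was called lower (-0.57) and 1 of Dnajc1 higher (0.50) with dox+TCP. Their median ratio was 0.10 with dox+TCP and -0.53 with dox (0.41 and 0.09 under median centring). Hspa5 (BiP), the central chaperone of the compartment, had ratios of -0.07 and 1.00 in dox+TCP cells and of -0.11 and -0.40 in dox cells. Dnajc3, a J protein that works with BiP, had 0.00 and 0.86 in dox+TCP cells (-0.0027 before rounding) and -0.21 and -0.12 in dox cells. Dnajb9, another J partner of BiP, had 0.01 and 0.19 in dox+TCP cells and -0.15 and -1.06 in dox cells. High values stood on dox+TCP replicate 2 for Hspa5 and Dnajc3, and a low value on dox replicate 2 for Dnajb9, Hsp90b1 and Dnajc10 (-1.21). For Dnajb9 the Cy3 level on dox replicate 2 was 9.67, above the 8.86 to 8.91 of the other arrays. Its Cy5 level was 8.92 and 9.05 in dox+TCP cells and 8.73 and 8.61 in dox cells. Dnajb11 had -0.54 and -0.15 in dox+TCP cells and -0.74 and -0.32 in dox cells, and Dnajc1 had 0.12 and 0.49 in dox+TCP cells and 0.06 and 0.65 in dox cells. Of all 21361 genes tested, 12657 had a positive difference between dox+TCP and dox cells (median 0.04). So had 13 of the 22 other folding genes of the endoplasmic reticulum described further on (median 0.11). Among the 7 members the difference was positive for 6, with a median of 0.59. It was 0.06 within the slide that held both replicate 1 arrays, and 0.26 without dox replicate 2, 0.19 without dox+TCP replicate 2, 0.87 without dox replicate 1 and 0.80 without dox+TCP replicate 1.

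Doxycycline replicates differed for many members. The ratio of dox replicate 2 was at least 0.5 below that of dox replicate 1 for 20 of 71 members (28.2%), against 16.1% of all genes, and at least 0.5 above it for 5 (7.04%), against 8.86%. Genes named here for this gap were chosen after their values were seen. Dnaja1, a J partner of cytosolic Hsp70, had ratios of -0.78 and -1.13 in dox+TCP cells, inside the range of 0.09 and -1.43 in dox cells. Its other 2 probes were also low on dox replicate 2, at -2.63 and -2.64, against -0.30 and -0.36 on dox replicate 1. Dnajc2, which sits on ribosomes, had -0.86 and -0.98 in dox+TCP cells and 0.11 and -1.34 in dox cells. For Hsp90b1, Dnaja1, Dnajc2, Hspd1 and Tcp1 the gap lay in Cy5, whose level on dox replicate 2 was 0.99 to 1.74 below that on dox replicate 1, while the mean reference level of replicate 2 differed from that of replicate 1 by at most 0.15. The dox+TCP replicates of these 5 genes differed by 0.08 to 0.43 in ratio. What set dox replicate 2 apart was not tested.

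**Figure D3:**
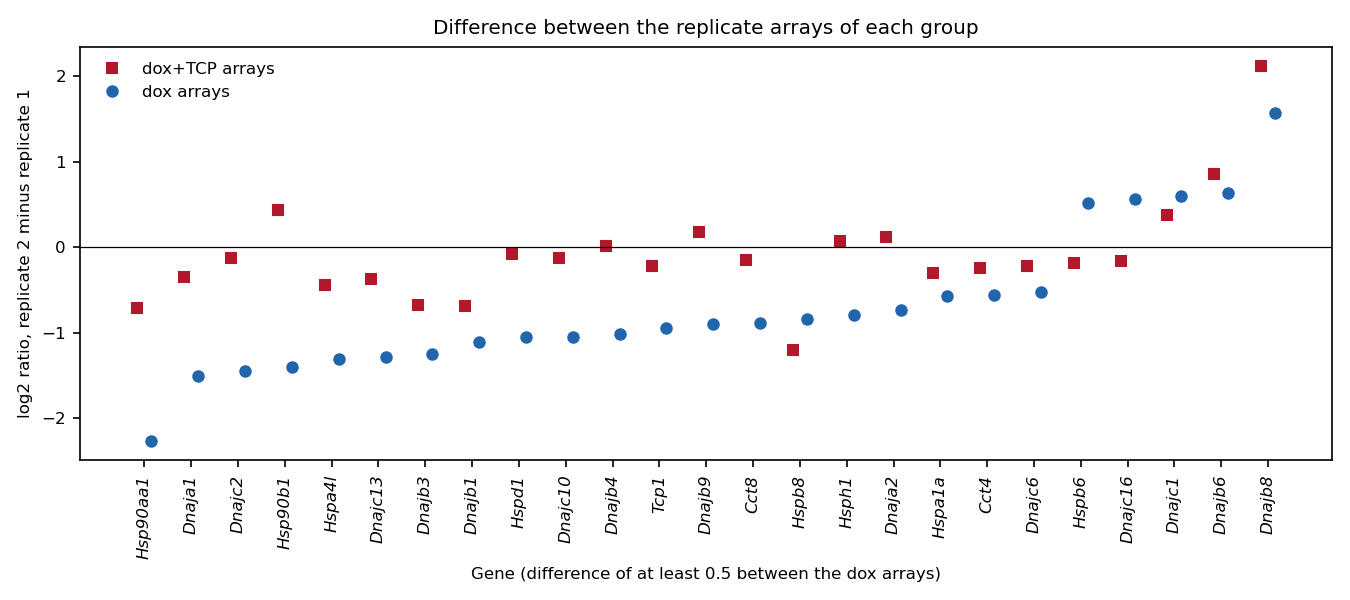
Replicate 2 minus replicate 1 in log2 ratio, on the dox+TCP arrays (red squares) and the dox arrays (blue circles), for the 25 tested members whose dox arrays differed by at least 0.5. The gap on the dox arrays runs from -2.27 for Hsp90aa1 to 1.57 for Dnajb8, and 20 of the 25 genes lie below 0.

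dox+TCP cells were set against dox cells to ask what TCP adds to the loss of Oct4. This difference of ratios cancels the reference where its mean level was the same in both groups, also where it differed between replicates. The Cy3 levels of Cct6a, Dnajc6 and Dnajb9, for example, differed between the groups on replicate 2, as given above. Whether the reference RNA itself differed there was not tested. No member and no gene was called by limma (0 of 71 and 0 of 21361, 0.0%), and at an unadjusted p under 0.05 there were 4 members and 935 genes. The 4 were Cct6a, Hsp90ab1, Hspa4 and Dnajc6. Cct6a differed by -0.95 (95% confidence interval -1.40 to -0.50; adjusted p = 0.996) and by -0.72 within slide 1. Hsp90ab1 differed by -0.55 (-0.86 to -0.23) and by -0.50 within slide 1, and Hspa4 by -0.36 (-0.70 to -0.03) and by -0.46 within slide 1. Dnajc6 differed by 0.89 (0.23 to 1.54) and by 0.73 within slide 1. Slide 1 is part of the fit that chose these 4, so its values are no separate support. Both dox+TCP arrays were above both dox arrays for 13 of 71 members (18.3%), against 20.2% of all genes, and below them for 16 (22.5%), against 12.9%. With loess, the groups lay on opposite sides of the reference for 3 members (4.23%), against 5.03% of all genes. The median difference over the members was -0.02, beside 0.04 over all genes, and -0.06 within slide 1. Intervals were wide for several members: that of Hsp90aa1 ran from -2.01 to 2.94 and that of Hspa5 from -0.46 to 1.91.

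**Figure D4:**
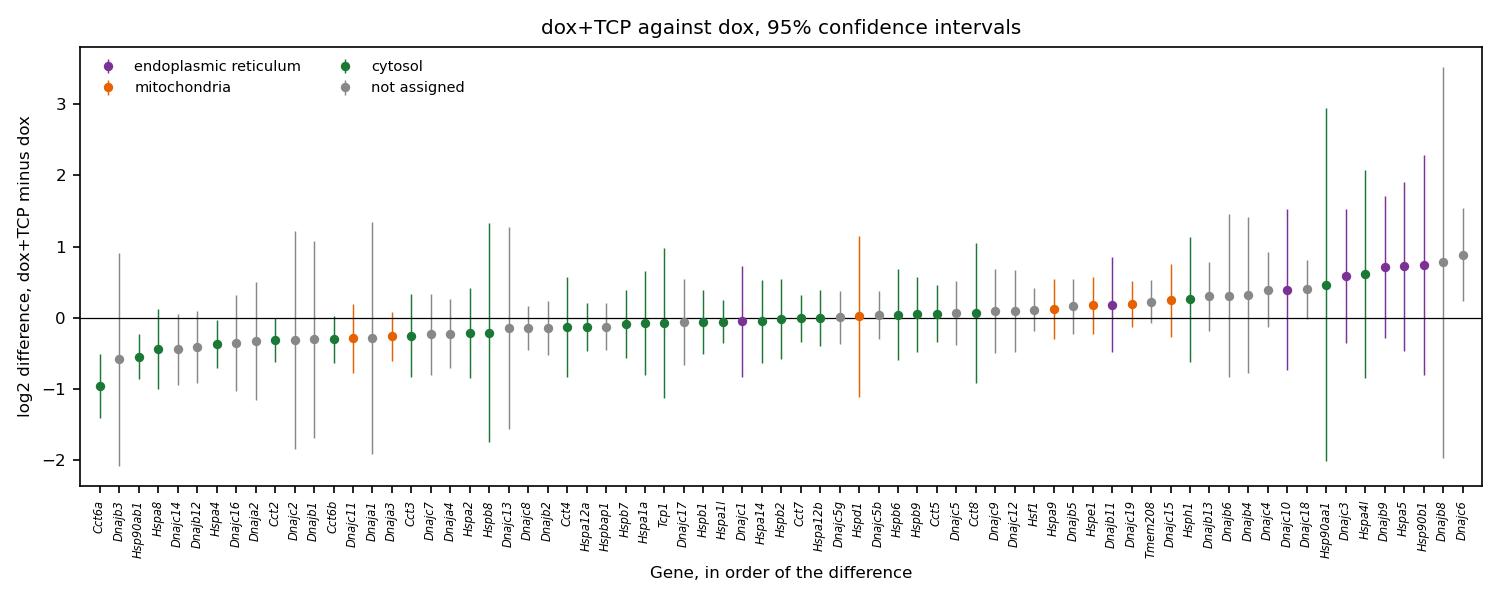
Difference in log2 ratio between dox+TCP and dox cells for the 71 tested members, in order, with 95% confidence intervals from limma; colours give the compartment. The intervals of Cct6a, Hsp90ab1 and Hspa4 lie below 0 and that of Dnajc6 above 0, and 6 of 7 genes of the endoplasmic reticulum lie above 0, with intervals that all include 0. Of all 21361 genes tested, 12657 had a difference above 0.

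Other genes of protein folding, from lists made for the same pathway, were called in both directions. Of 28 co-chaperones of Hsp90 and Hsp70, 1 was higher and 5 lower with dox+TCP, and 2 were higher and 4 lower with dox. As a share of all genes, 7.32% were higher and 8.08% lower with dox+TCP, and 6.32% were higher and 8.26% lower with dox; these shares are the background of each list. Under median centring every lower call named from the lists was lost. The higher ones were still called there, and on the scanner's own log ratios Pfdn2 and Ero1b with dox and Htra2 with dox+TCP were not. Bag3, which hands clients of Hsp70 to autophagy and binds Hspb8, rose by 0.82 with dox+TCP (adjusted p = 0.0251) and by 1.13 with dox (adjusted p = 0.0179) on the log2 scale. Ahsa1, which speeds the ATPase of Hsp90, fell by 0.90 with dox+TCP (adjusted p = 0.0182) and by 0.89 with dox (adjusted p = 0.0175), but was at -0.24 with dox+TCP and -0.08 with dox under median centring. Stip1, which joins Hsp70 to Hsp90 as Dnajc7 does, fell by 0.65 with dox+TCP (adjusted p = 0.0268) and by 0.50 with dox (adjusted p = 0.0404), but was at 0.16 with dox under median centring. Pih1d1 and Fkbp8 were lower in both groups, Bag4 was lower with dox+TCP (-0.77), and Bag2 was higher with dox (1.28). Median centring gave Pih1d1 -0.39 with dox+TCP and -0.38 with dox, Fkbp8 -0.34 with dox+TCP and -0.25 with dox, Bag4 -0.43 with dox+TCP and Bag2 1.74 with dox.

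Of 14 prefoldin subunits and helpers of chaperonins, 0 were higher and 2 lower with dox+TCP, and 1 was higher and 1 lower with dox. Pfdn6 was lower in both groups, at -0.59 with dox+TCP and -0.58 with dox (-0.03 and 0.14 under median centring). Tbcc, a tubulin folding cofactor, was lower with dox+TCP (-1.08; -0.61 under median centring), and Pfdn2 was higher with dox (0.66; 1.27 under median centring). Of 22 other folding genes of the endoplasmic reticulum, 3 were higher and 0 lower with dox+TCP, and 3 were higher and 1 lower with dox. Ddit3 (CHOP), a transcription factor of the unfolded protein and integrated stress responses, had ratios of 3.04 and 3.49 in dox+TCP cells (3.27 ± 0.24, SE, n = 2 arrays; adjusted p = 0.0169) and 1.99 and 2.77 in dox cells (2.38 ± 0.24; adjusted p = 0.0208). Serpinh1 (Hsp47), a collagen chaperone, rose by 1.48 with dox+TCP (adjusted p = 0.0165) and by 1.72 with dox (adjusted p = 0.0141). Ero1b, an oxidase that serves disulfide formation, rose by 1.04 with dox+TCP and by 0.50 with dox (0.93 with dox under median centring), and Creld2 fell with dox (-0.80; -0.10 under median centring). Of 12 mitochondrial folding and protease genes, Grpel2 was higher in both groups (0.83 with dox+TCP and 0.84 with dox, and 1.21 and 1.40 under median centring) and the protease Htra2 was higher with dox+TCP (0.62; 1.11 under median centring).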

How the data were processed

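Cell RNA was measured on 4 arrays of Agilent design 014868. Total RNA (1 µg) was primed with oligo-dT for labelling, per the labels' protocols. Spot and local background intensity values are as scanned with Agilent Feature Extraction 10.1.1.1, per the file headers, which name mouse mm7 (NCBI35). That software also gave log10 ratios (Cy5 over Cy3), after its own background subtraction and dye normalization, per the file headers. The authors' deposited value table held log10 values equal to these ratios within 0.005, with column medians of 0, 0.0111, 0 and 0, so its scale and direction are known. No source used here gives other upstream steps.

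Mean signals were corrected with limma 3.58.1 (R 4.3.3) by normexp (offset 50) on local background medians, with any background above 2 times its array and channel median set to that median (11 to 112 spots per array and channel), then loess within arrays, with 1639 control spots at weight 0. Spots marked as outliers (119 to 176 per array) were left out and spots of 1 probe averaged. No spot was saturated, and 68.8% to 78.1% of spots were well above background in each channel; the number of arrays limits the precision. To be tested, a probe had to be well above background in Cy5 on both arrays of either group, or in Cy3 on all 4, and a gene took its brightest tested probe (31114 probes, 21361 genes). Of 41 members with several tested probes, all probes shared a sign for 22 with dox+TCP and 26 with dox. Channel levels were scaled between arrays with Aquantile. Levels are not compared between probes.

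limma fitted a mean per group over all 4 arrays (2 residual and 1.79 prior degrees of freedom), with eBayes and Benjamini-Hochberg adjustment over all genes at 0.05. Group means were tested against 0, which leaves out the reference's own spread, and dox+TCP was tested against dox. The first 2 comparisons share the reference. The replicates are biological per the labels. The fit was tested on simulated data. Symbols were updated through a RefSeq gene table of GRCm38.p6, used for names only: Dnajb10 became Dnajb2, Hsp110 became Hsph1, Hspa9a became Hspa9 and Hspc171 became Tmem208. The rule missed 10 genes that carry a family name today but another in the files, such as Hspa13 and Dnajc21.

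The members and lists were chosen with earlier results of these data known. Named were each called member, the heat shock factors, each CCT subunit, the measured Hsp90, Hsp70, Hsp110, small heat shock and mitochondrial chaperonin genes, J proteins where called or in the endoplasmic reticulum or mitochondria, and called genes of the other lists, at most 6 a list. The alternatives were the scanner's log ratios, the authors' table, median centring, backgrounds as read, no background subtraction, an offset of 16, other filters, the mean of a gene's probes, a replicate block, each array left out and each group alone.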

Additional observations from a re-analysis of the deposited data

Results flagged for a closer look

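With loess, in 3 members every dox+TCP array lay on one side of the reference and every dox array on the other. For Hsp90ab1, the constitutive cytosolic Hsp90, the difference between dox+TCP and dox cells was -0.546, with ratios of -0.25 and -0.25 in dox+TCP cells and 0.25 and 0.34 in dox cells. For Dnajb9, a J protein of the endoplasmic reticulum, it was 0.71, with 0.01 and 0.19 in dox+TCP cells and -0.15 and -1.06 in dox cells, the last on an array where its reference level was high. For Dnaja3, a J protein of mitochondria, it was -0.259, with -0.02 and -0.16 in dox+TCP cells and 0.13 and 0.21 in dox cells. limma called none of these differences (adjusted p = 0.996 for each; unadjusted p = 0.00929 for Hsp90ab1, 0.117 for Dnajb9 and 0.101 for Dnaja3). Such opposite sides were seen for 4.23% of the members and 5.03% of all genes. They depended on the processing. Under median centring the mean ratios of all 3 Hsp90 genes and all 7 mitochondrial members were above 0 with dox+TCP, so Hsp90ab1 and Dnaja3 no longer lay below the reference. The scanner's own ratios of Dnaja3 were 0.03 and -0.13 in dox+TCP cells, and its second probe gave 0.02 there with loess.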

How the results depend on the processing

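Of the 18 calls of members against the reference, 16 kept their sign in each of the 15 alternatives tried. Median centring turned the sign of Hspb1 with dox+TCP and Dnajc19 with dox. It moved the median of all genes to 0.177 with dox+TCP and 0.179 with dox, and the members' median to 0.349 and 0.475, and called 17 members with dox+TCP (16 higher, 1 lower) and 34 with dox (31 higher, 3 lower). Values that changed sign there and were called with loess or with median centring were 0.5405 for Hspa14 and 0.0628 for Hspb1 with dox+TCP, and with dox 0.796 for Cct7, 0.137 for Dnajc19, 0.497 for Dnajc5, 0.644 for Dnajc8, 0.728 for Hspa14, 0.681 for Hspa4, 0.7485 for Hspa8, 0.691 for Hspa9 and 0.745 for Hspe1. Other members changed sign without a call in either, such as Cct3 with dox (0.08 under median centring). With backgrounds as read, 0 members were called in either group (14 with dox+TCP and 10 with dox at an unadjusted limma p under 0.05) and the median with dox+TCP was -0.00594. The replicate block gave 17 calls with dox+TCP and 13 with dox; same-numbered arrays deviated together (correlation 0.472 over 21361 genes), but with 2 pairs the numbers do not show pairing. Each group alone gave 18 calls with dox+TCP and 0 with dox (19 at an unadjusted p under 0.05). Leaving out an array gave 0 to 18 calls with dox+TCP and 0 to 16 with dox; where this left a group with 1 array, that array was assumed to vary like the other group. The cause of these changes was not tested. dox+TCP against dox had 0 member calls under every alternative with a test. Over all genes, calls numbered 3291 with dox+TCP and 3114 with dox, 5100 and 6006 under median centring, 5147 and 4882 with the replicate block, 0 and 0 with backgrounds as read (1967 and 1894 at an unadjusted p under 0.05), and 0 to 5921 and 0 to 4098 with an array left out. For the median of the endoplasmic reticulum, leaving out arrays and taking the value within 1 slide were chosen after seeing the data. Slide and scan day as random blocks could not be fitted and were not run.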
